A study of Hydra vulgaris with 2 samples.

Results

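Actin, tubulin, cofilin and talin transcripts were followed in RNA from extracellular vesicles (EVs), the membrane-bound particles that cells release, of the freshwater polyp *Hydra vulgaris*. The members are 6 genes, 2 actins (LOC100202036 and LOC100206987), the α-tubulin LOC100197513, the β-tubulin LOC100199191, the cofilin LOC100198579 and the talin LOC100207482, each with 1 target among the 25314 listed targets and the 21982 listed as mRNA. They were chosen by transcript identity and by their TPM values (a relative abundance scaled per transcript length) in the same libraries, so those levels are given as a description, with no test. RNA-seq covered 1 condition, EV RNA of polyps of the strain Zurich, in 2 libraries. The one labelled 5000Hy is library A and the other, whose label carries a larger number, is library B. The meaning of these numbers was not established, and their part in any ratio of library A over library B was not tested. Both libraries came from starved polyps kept together in dishes of medium. The vesicles of these polyps were pelleted by centrifugation and, before RNA extraction, digested with proteinase K and then RNase A. The polyps are thus pooled, no treatment or genotype was compared, and RNA of whole polyps was not analysed here, so no value is an enrichment over the animal. Fewer vesicles that carry a transcript and fewer copies per vesicle cannot be told apart in such bulk RNA.

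Actin polymerises into the filaments that shape the cell cortex and, in *Hydra*, form the contractile fibres of the epithelial muscle cells. Cofilin severs these filaments and returns monomers to the pool, and talin ties them to integrins at the membrane. α- and β-tubulin pair into the dimer from which microtubules are built, and the chaperonin CCT folds both actin and tubulin.

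The estimated counts of a library added up to 5943550.5 in library A against 3943873 in library B, but most fell on 5 very abundant targets. Outside these, 142638 counts fell on mRNA targets in library A against 34881 in library B, of which the single mRNA LOC100208569 held 8.29% in library A against 36.1% in library B. The 6 members together had 2104 counts in library A against 375 in library B, or 1.47% and 1.07% of these mRNA counts. The intervals below are exact Poisson intervals for levels and exact conditional intervals for ratios, at 95%. They cover counting error only, since amplified reads are not independent molecules, and say nothing of the spread between replicates, which 2 libraries cannot give for a difference between them.

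The actin LOC100202036, described as non-muscle actin 6.2 (XM_002154426.3, 1400 bases), had 1042 counts in library A against 143 in library B. This is a level of 114 TPM in library A (107 to 121) against 24.9 TPM in library B (21.0 to 29.3), with a mean of 69.5 ± 63.1 TPM (SD, n = 2). It was the most abundant member in both libraries, at rank 13 of the mRNA targets in library A against rank 19 in library B. It made up 45.7% of the summed TPM of the 6 members in library A against 36.8% in library B. The second actin, LOC100206987 (XM_002154660.3, 1491 bases), had 316 counts in library A against 89 in library B. Its level was 32.3 TPM in library A (28.9 to 36.1) against 14.5 TPM in library B (11.6 to 17.8), with a mean of 23.4 ± 12.6 TPM (SD, n = 2). The counts of both actins were whole to within 0.001 of a count, and so gave no sign of reads split with another target. The ratio of the first actin to the second was 3.53 in library A (3.11 to 4.01) against 1.72 in library B (1.31 to 2.27), on the TPM scale. The ratio in library A over that in library B was 2.05 (1.51 to 2.78).

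The α-tubulin LOC100197513, described as tubulin alpha-1D (XM_004208740.2, 1011 bases), had 212.588 counts in library A against 26.5667 in library B. Its level was 33.2 TPM in library A (28.9 to 38.0) against 6.59 TPM in library B (4.41 to 9.75), with a mean of 19.9 ± 18.8 TPM (SD, n = 2). It was the only member with fractional counts, the mark of reads that fit more than 1 target, as 18.9% of the 2043 mRNA targets with at least 10 counts in library A had. The β-tubulin LOC100199191 (XM_002161824.3, 1552 bases) had 309 counts in library A against 103 in library B. Its level was 30.3 TPM in library A (27.0 to 33.9) against 16.0 TPM in library B (13.1 to 19.5), with a mean of 23.2 ± 10.1 TPM (SD, n = 2). The β-tubulin was not resolved from the α-tubulin in library A, at a ratio of 0.914 (0.763 to 1.09), and stood above it in library B, at 2.44 (1.56 to 3.81). The ratio in library A over that in library B was 0.375 (0.231 to 0.611). Actin LOC100206987 over the β-tubulin was 1.07 in library A (0.910 to 1.25) against 0.902 in library B (0.671 to 1.21). The interval for the change of that ratio, 1.18 (0.845 to 1.66), spans 1, so a change was not resolved at this depth.

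The fractional counts of the α-tubulin could be followed to its paralogs. LOC100206745, described as alpha-1D-like (1181 bases), had 136.246 counts in library A against 19.4333 in library B. LOC100200835, described as an alpha-1 chain (1749 bases), had 76.1656 counts in library A against 8 in library B. The counts of these 3 genes summed to 425 in library A, and those of LOC100197513 and LOC100206745 alone summed to 46 in library B, whole to within 0.001. The level of LOC100197513 alone therefore rests on how shared reads were divided among paralogs, and the summed level does so less. At 17.9 TPM in library A against 4.06 TPM in library B, LOC100206745 stood below LOC100197513 in each. The 4 α-tubulins summed to 65.6 TPM in library A against 13.2 TPM in library B, including LOC100199437 with 7.93 TPM in library A against 1.40 TPM in library B. The second β-tubulin, LOC100214668 (2175 bases), had 63 and 4 counts, or 4.33 TPM in library A against 0.436 TPM in library B. With all paralogs, β- over α-tubulin was 0.528 in library A (0.461 to 0.605) against 1.25 in library B (0.910 to 1.74). Library A over library B this was 0.421 (0.295 to 0.598), below 1 as for the pair of members.

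Cofilin LOC100198579 (XM_012704822.1, 462 bases), the shortest of the 6 transcripts, had 96 counts in library A against 9 in library B. Its level was 37.4 TPM in library A (30.3 to 45.6) against 5.59 TPM in library B (2.56 to 10.6), with a mean of 21.5 ± 22.5 TPM (SD, n = 2). A single count of this short transcript stood for 0.389 TPM in library A against 0.621 TPM in library B. Its paralog LOC100204492 (594 bases) had 7 counts in library A against 1 in library B, or 2.005 TPM against 0.456 TPM. The talin LOC100207482, described as talin-2 (XM_002154489.2, 7917 bases), had 128 counts in library A against 4 in library B. Its level was 2.34 TPM in library A (1.95 to 2.78) against 0.116 TPM in library B (0.0316 to 0.297), with a mean of 1.23 ± 1.57 TPM (SD, n = 2). Talin thus had more counts than cofilin in library A, but a lower level per length. At its length, the 0.4 TPM that the study used as a detection level corresponded to 21.9 counts in library A against 13.8 in library B. For cofilin it was 1.03 counts in library A against 0.644 in library B. In library B talin lay below that level, although its 4 counts exceed the 3 counts set here as the upper limit for a count of 0. This limit is lower than the upper end of the exact intervals for genes at 0 counts. The second talin gene, LOC101236665, described as talin-1-like (477 bases), had 7 counts (2.62 TPM) in library A against 0 counts in library B.

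**Figure D1:**
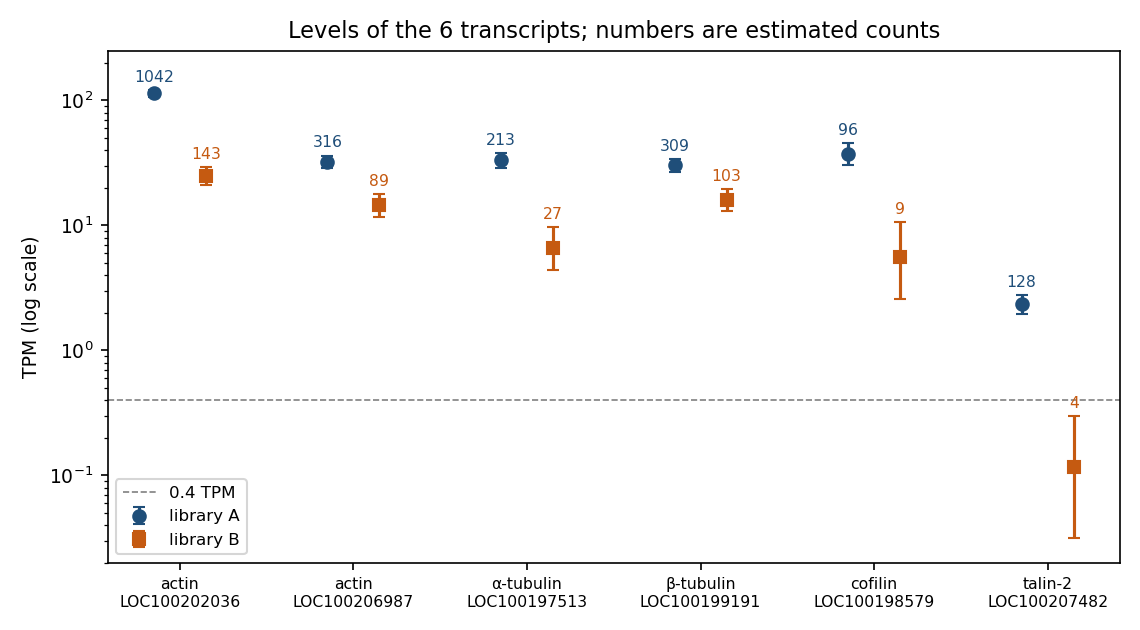
Levels of the 6 transcripts in TPM (log scale) in library A (circles, left of each pair) and library B (squares), with bars for exact Poisson intervals at 95% and the estimated count, rounded to a whole number, above each point. All 6 are lower in library B, and talin-2 alone lies below 0.4 TPM (dashed line), at 0.116 TPM with 4 counts.

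In order of level, actin LOC100202036 stood first in library A, 3.05 times above the next (2.48 to 3.80) on the TPM scale. Cofilin, the α-tubulin, the second actin and the β-tubulin followed between 37.4 and 30.3 TPM, and the ratio of each to its next neighbour had an interval that spans 1, so their order was not resolved by the counts. Talin-2 came last, with the β-tubulin 13.0 times above it (10.5 to 16.1). In library B actin LOC100202036 again stood first, 1.55 times above the β-tubulin (1.20 to 2.02). The order of the β-tubulin and the second actin, at 16.0 and 14.5 TPM, was not resolved, with a ratio of 1.11 (0.827 to 1.49). The second actin stood 2.20 times above the α-tubulin (1.39 to 3.46). The order of the α-tubulin and cofilin, at 6.59 and 5.59 TPM, was not resolved either, and talin-2 was last again. The place of actin LOC100202036 and of talin-2 was therefore the same in both libraries, and the other 4, not resolved from their neighbours in library A, formed a higher and a lower pair in library B.

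Of the 6 members, 5 reached 0.4 TPM in both libraries, all but talin-2. The share over all 25314 targets was 4.25%, and nothing is read from the difference because the members were chosen by their levels. The summed TPM of the members was 250 in library A against 67.7 in library B, a mean of 159 ± 129 TPM (SD, n = 2). The ratio of both actins to both tubulin members was 2.31 in library A (2.08 to 2.56) against 1.74 in library B (1.39 to 2.16), and the ratio in library A over that in library B was 1.33 (1.04 to 1.70). With all 6 tubulin genes, the ratio of actin to tubulin was 1.46 in library A (1.34 to 1.59) against 1.33 in library B (1.08 to 1.63), and the change between them, 1.10 (0.881 to 1.37), was no longer resolved. The ratio was above 1 in both libraries by either set. For LOC100202036 over cofilin the ratio was 3.05 in library A (2.48 to 3.80) against 4.45 in library B (2.28 to 9.93), a change of 0.686 (0.298 to 1.40) that was not resolved.

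All 6 members had a lower TPM in library B, and so did most transcripts. Over the 1066 mRNA targets with at least 20 counts summed over both libraries, the median log2 ratio of library A over library B, taken on TPM + 0.1, was 2.78 with quartiles of 2.10 and 3.58. Of these targets 892 had fewer than 10 counts in library B and so passed the filter mainly through library A. Over the 171 mRNA targets with at least 10 counts in each library the median was 2.001, with quartiles of 0.57 and 2.65. The median of the 6 members was 2.25 on the same scale, with cofilin and talin-2 below 10 counts in library B. Over the 4 members with at least 10 counts in each library it was 1.67, below the 2.001 of the 171 targets. At least 2-fold higher in library A were 5 of the 6 members and 94.7% of the 1066 targets. Of the 171 targets 72.5% were, and so were 3 of the 4 members with as many counts in each library. The β-tubulin LOC100199191 was 1.89-fold higher in library A (1.51 to 2.38), a ratio on the TPM scale. Actin LOC100206987 followed at 2.23-fold (1.76 to 2.86). Both lay below the quartiles of the 1066 targets, with log2 ratios of 0.91 and 1.15, and within those of the 171. Actin LOC100202036 was 4.59-fold higher (3.85 to 5.50), the α-tubulin 5.03-fold (3.32 to 7.70) and cofilin 6.68-fold (3.38 to 15.1). Talin-2 had the largest ratio of the 6, at 20.2-fold (7.69 to 75.1), which rests on 4 counts in library B.

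**Figure D2:**
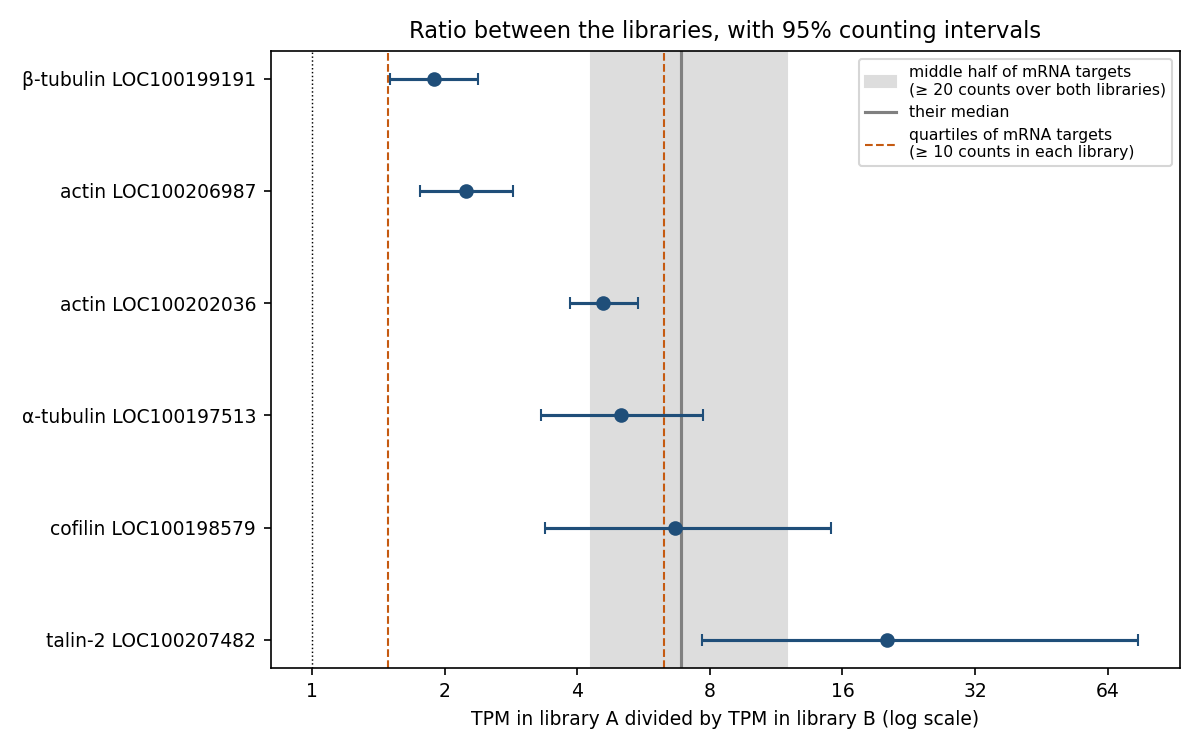
TPM in library A divided by TPM in library B (log scale) for each of the 6 transcripts, with exact conditional binomial intervals at 95%. The grey line and band give the median and the quartiles of 1066 mRNA targets on the log2 scale of TPM + 0.1, and the dashed lines give the quartiles of the 171 with at least 10 counts in each library. The β-tubulin and the second actin, at 1.89 and 2.23, lie below the band but between the dashed lines.

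The same comparison can be made on counts, by giving each member in library B the share that it held in library A of the mRNA counts outside the 5 most abundant targets. Since LOC100208569 took such unequal shares of these counts, the number is also given without it. The β-tubulin had 103 counts in library B (84.1 to 125), above both 75.6 and, without LOC100208569, 52.7. The second actin had 89 (71.5 to 110), above 53.9 without LOC100208569 but not resolved from 77.3 with it. Actin LOC100202036 had 143 counts (121 to 168), below both 255 and 178, and talin-2 had 4 (1.09 to 10.2), below both 31.3 and 21.8. The α-tubulin had 26.6 counts (17.8 to 39.3), below 52.0 but not resolved from 36.2. Cofilin had 9 (4.12 to 17.1), below 23.5 but not resolved from 16.4. These intervals cover the counting error of library B only, and the numbers set beside them are taken without that of library A. With this limit, the β-tubulin held a larger share of mRNA counts in library B on either scaling, and actin LOC100202036 and talin-2 a smaller one.

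Genes with the most similar levels were sought among 921 other named mRNA genes, by the distance on log2(TPM + 0.1) over the 2 libraries. For actin LOC100202036 the nearest was the Y-box factor homolog LOC100211522, with 84.0 TPM in library A against 20.1 TPM in library B, at a distance of 0.54. LOC100204518, described as a putative uncharacterized protein, came next at 1.02. Ribosomal protein genes were nearest to the second actin, L37-A (LOC100212156, 0.44) and S2 (LOC100211442, 0.60), and to the α-tubulin, S25 (LOC100199000, 0.09) and L5 (LOC100203379, 0.10). The β-tubulin was closest to minicollagen 11 (LOC100212471, 0.58) and to L37-A (0.58). Polyubiquitin-B (LOC100212621, 0.13) and ribosomal protein L18 (LOC100203649, 0.18) were closest to cofilin. Talin-2 was closest to the uncharacterized genes LOC100200012 (0.02) and LOC100207040 (0.07), which had 1 count each in library B. With 2 libraries such likeness is no more than a similar pair of levels.

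A list of 63 cytoskeletal genes, the members included, places them among the genes of their pathway. It was drawn by description from the named genes given here, although that of LOC100214508 names no cytoskeletal function. The lowest mean of the list was 1.09 TPM, so less abundant genes of the pathway are missing. All 63 reached 0.4 TPM in library A, from which nothing is read because the genes were chosen from those the study detected. In both libraries 47 of the 63 reached it, beside 58.8% of the 1019 mRNA targets at or above that lowest mean. At least 3 counts in both libraries were found for 45, a minimum for which no share over all targets is given. The list genes were higher in library A in 61 of 63 cases, with a median log2 ratio of 2.22, or 2.11 with the genes at 0 counts in library B set at 3 counts. With at least 20 counts over both libraries, 47 of 48 list genes were higher in library A, as were 96.8% of the 1066 mRNA targets. Among the list genes, 9 had fractional counts.

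Of the 8 other genes that bind actin monomers or sever or cap filaments, all reached 0.4 TPM in both libraries. Glia maturation factor β (LOC100212984), a relative of cofilin that in other animals acts on Arp2/3 branches, was the most abundant list gene, with 684 TPM in library A against 763 TPM in library B. Its counts, 2325 in library A against 1628 in library B, were fractional, and it was one of the genes higher in library B. Its ratio was 0.896 (0.841 to 0.955). The lowest of these genes was LOC100213734, described as WD repeat-containing protein 1-A-like, an actin-interacting protein that works with cofilin, at 2.47 TPM in library A against 0.453 TPM in library B. Profilin (LOC100200741), which binds actin monomers and feeds them to growing ends, was named after its values were seen. It had 26.9 TPM in library A against 8.86 TPM in library B, and its ratio to cofilin LOC100198579 was 0.720 in library A (0.551 to 0.943) against 1.58 in library B (0.730 to 3.81), a change of 0.454 (0.181 to 1.04) that was not resolved.

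The Arp2/3 complex nucleates branched actin filaments, and cortactin stabilises the branches. Of these 8 genes, 6 reached 0.4 TPM in both libraries, beside 58.8% of the mRNA targets at or above the lowest mean of the list. At least 3 counts in both were found for 2 of the 8, a minimum for which no share over all targets is given. The most abundant was subunit 1A (LOC100198816), with 7.80 TPM in library A against 2.92 TPM in library B, and the least abundant subunit 4 (LOC100215979), with 2.03 TPM in library A against 0.404 TPM in library B, the last from 1 count. Arp3 (LOC100203283) had 20 counts (4.07 TPM) in library A against 0 in library B, and was at least 4.19-fold higher in library A, where such a bound sets library B at 3 counts and leaves out the counting error of library A. The cortactin LOC101236632 had 14 counts in library A against 0 in library B, at least 2.93-fold higher in library A.

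Myosins, the motors that pull on actin filaments, and the kinase of their light chain reached 0.4 TPM in both libraries in 7 of 10 genes. The myosin-10-like heavy chain LOC100207631 (6032 bases) led with 540 counts (13.0 TPM) in library A against 21 counts (0.802 TPM) in library B, a ratio of 16.2 (10.5 to 26.4). The lowest, the myosin-2 heavy chain LOC100212328, had 73.1 counts (2.74 TPM) in library A against 0 counts in library B, at least 15.4-fold higher in library A. Its counts were fractional, and with the 219 counts of LOC105844185, another myosin-2 heavy chain, they summed to 292 in library A, whole to within 0.001. The zero of LOC100212328 in library B stood beside 12 counts of LOC105844185, and the pair together was 17.8-fold higher in library A on the TPM scale (10.0 to 34.9). Tropomyosins and myophilins, the calponin-like proteins that lie along actin filaments, reached 0.4 TPM in both libraries in 7 of 9 genes. By mean TPM the highest was the tropomyosin LOC100213922, with 16.6 TPM in library A against 6.04 TPM in library B. The lowest by mean TPM was the tropomyosin LOC100215665, with 1.67 TPM in library A against 0.662 TPM in library B. The tropomyosin LOC105845945 had 11 counts in library A against 0 in library B, at least 2.30-fold higher in library A.

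Cross-linkers, which bundle actin filaments or join them to microtubules and membranes, included several long transcripts. All 6 had at least 3 counts in both libraries, a minimum for which no share over all targets is given. Of these, 2 of 6 reached 0.4 TPM in both, beside 58.8% of the mRNA targets at or above the lowest mean of the list. The median log2 ratio of the cross-linkers was 3.95. The mRNA targets with at least 20 counts were also higher in library A, with a median of 2.78 and an upper quartile of 3.58, and the group was not tested against them. The highest mean was that of the dystonin LOC100209298 (9559 bases), with 9.39 TPM in library A against 0.507 TPM in library B, and the lowest that of the dystonin LOC100214026 (10851 bases), with 2.01 TPM in library A against 0.211 TPM in library B. Counts of LOC100209298 were fractional, and with those of the microtubule-actin cross-linking factor LOC105843599 they summed to 1595 in library A against 53 in library B, whole to within 0.001. The pair together was 18.8-fold higher in library A on the TPM scale (14.3 to 25.2). Talin-2, at 20.2-fold, had a ratio 1.07 times as large (0.385 to 4.14), which was not resolved from that of the pair.

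Among the 3 other adhesion and membrane linkers, radixin (LOC100202353), which joins actin to the membrane, was highest with 7.97 TPM in library A against 1.03 TPM in library B. Fermitin 2 (LOC100211707), which in vertebrates activates integrins together with talin, was lowest with 1.97 TPM in library A against 0.521 TPM in library B. Of the 3 other microtubule and septin genes, septin-7 (LOC100209354) had 1.92 TPM in library A against 0.806 TPM in library B. LOC100214508 was placed in this role, although its description, a non-specific serine/threonine protein kinase, names no cytoskeletal function. It had 1.86 TPM in library A against 0.318 TPM in library B, and its mean of 1.09 TPM was the lowest of the list. The dynein light chain LOC100198469 was the other list gene higher in library B, with 4 counts (1.20 TPM) in library A against 3 counts (1.43 TPM) in library B, a ratio whose interval (0.142 to 5.71) spans 1.

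**Figure D3:**
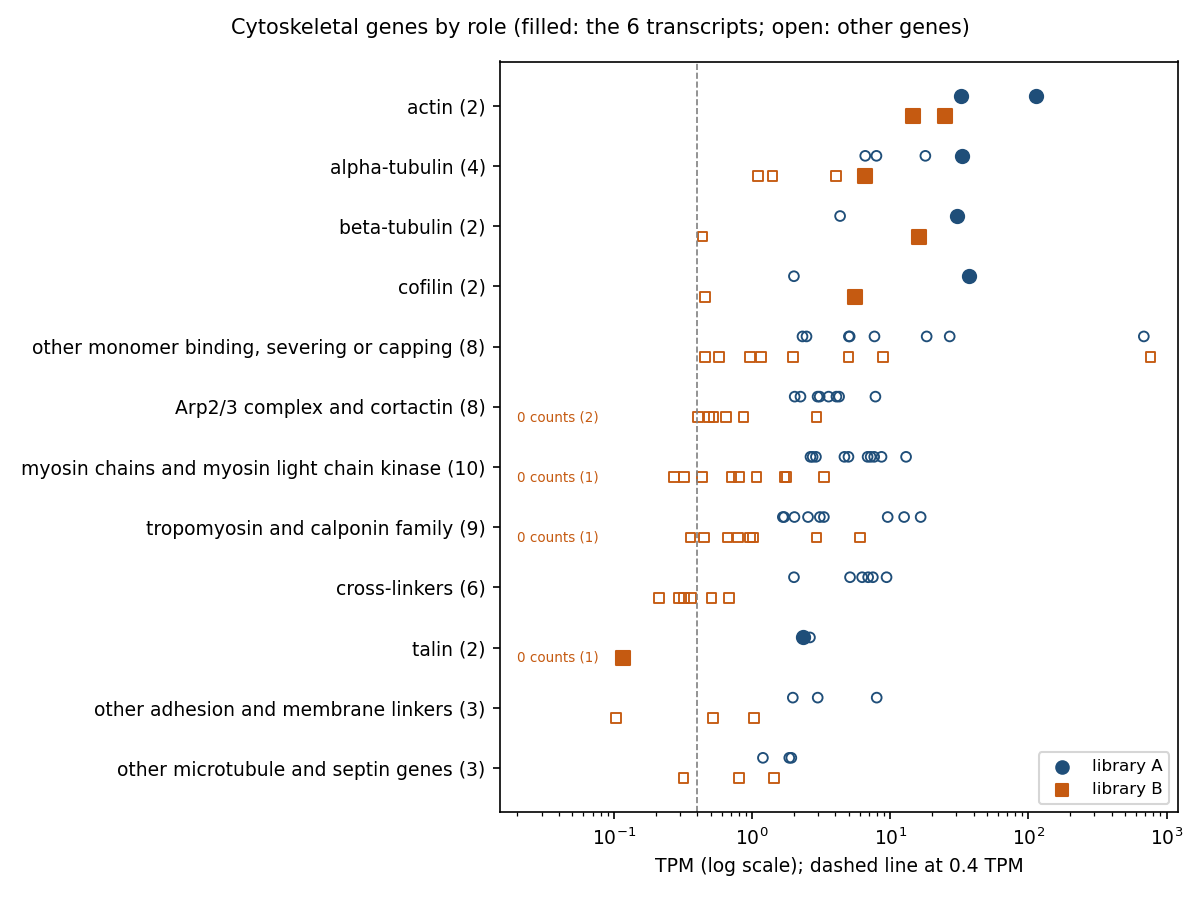
TPM (log scale) of 59 of the 63 cytoskeletal genes by role, with the number of genes in brackets, in library A (circles, upper row) and library B (squares, lower row), where filled symbols are the 6 transcripts and open symbols other genes. Genes with 0 counts in library B are given as a number at the left, and the cross-linkers lie between 0.211 and 0.676 TPM in library B.

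Transcript length differed widely among the members, and the ratio between the libraries was set beside it after the data were seen. Among the list genes with 1 target and at least 20 counts over both libraries, the 8 of 4000 bases or more, talin-2 among them, had a median log2 ratio of 3.68, with a range of 2.76 to 4.18. The 6 of 2000 to 4000 bases had a median of 3.48. The 19 of 1000 to 2000 bases, which include both actins and both tubulin members, had a median of 2.11 (0.91 to 3.50), and the 10 under 1000 bases, cofilin among them, one of 1.97. Over all mRNA targets with the same counts, the medians were 2.81 for 205 targets of 4000 bases or more, 3.07 for 302 of 2000 to 4000 bases, 2.65 for 334 of 1000 to 2000 bases and 2.61 for 225 under 1000 bases, and so highest for those of 2000 to 4000 bases. The Spearman correlation between length and log2 ratio was 0.428 across the 43 list genes and 0.453 across 37 of them without the members, against 0.0862 across the 1066 mRNA targets. With at least 50 counts in library A it was 0.645 across 30 list genes and 0.390 across 372 mRNA targets. That filter uses the counts of library A, which also enter the ratio. Whether the relation extends beyond the list was therefore not tested. Without the filter on counts it was 0.206 across 58 list genes. These are descriptions across genes that share the same pair of libraries. The part of transcript length in the ratio of any member was not tested.

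**Figure D4:**
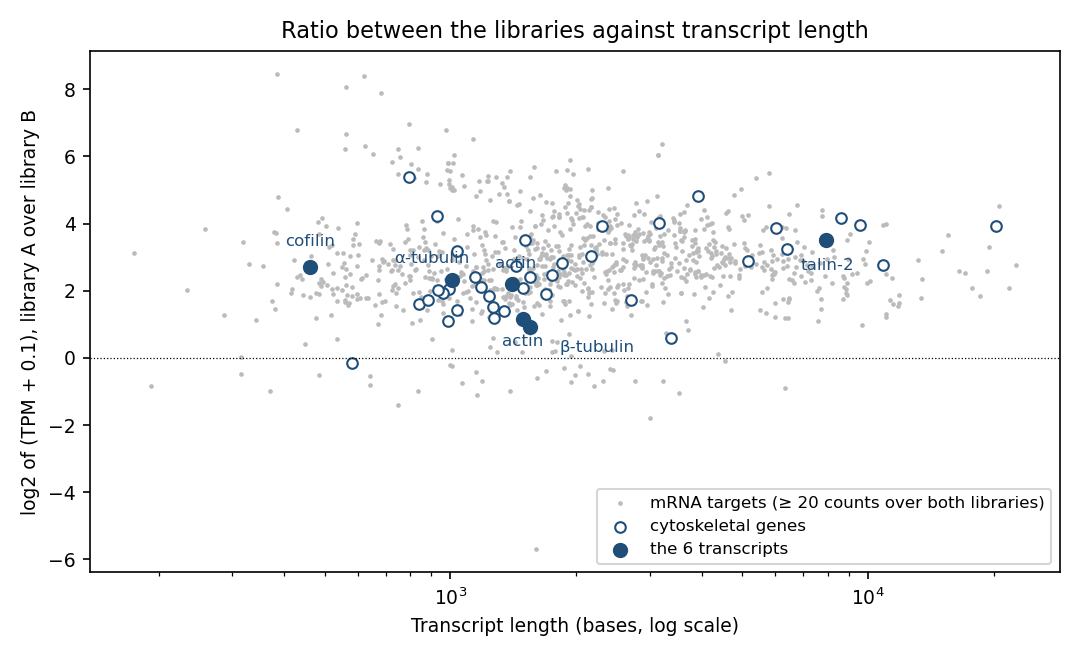
Log2 ratio of TPM + 0.1, library A over library B, against transcript length in bases (log scale) for 1066 mRNA targets (grey), 37 cytoskeletal genes (open) and the 6 transcripts (filled), all with at least 20 counts over both libraries. The long talin-2 lies at 3.50, and the second actin and the β-tubulin lie at 1.15 and 0.91.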

How the data were processed

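RNA from EVs of *Hydra vulgaris* was measured in 2 libraries, described by the study as biological replicates of 1 condition. Sequencing was paired-end on libraries of the Ovation SoLo kit, and the authors trimmed the reads with Trim Galore and quantified them with kallisto on the transcripts of the NCBI assembly Hydra_RP_1.0; versions are not given in the sources used here. Expected counts (estimated counts per target) and TPM are given as deposited by the authors. The expected counts are not normalized and split reads that fit several targets. The TPM values were scaled by the authors over all targets of a library, so they depend on the few most abundant ones. Lengths and effective lengths of targets are also as deposited by the authors.

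The 6 members and the gene lists were chosen with earlier results of these data known. The files do not pair targets with gene names. Names came from the part of the study's gene list given here (1264 genes), matched by the pair of TPM values to 1 target or to a run of at most 6 adjacent targets with that sum. All list genes were matched, 58 of 63 cytoskeletal genes to 1 target. One role of the list, with 4 genes, is in the counts over the list but is not reported here. A gene table of the assembly HydraT2T_AEP held 5 of the 6 members by gene identifier, and its coordinates were not used. The text names the 6 members, their paralogs, the genes with the highest and the lowest mean TPM in each other role, genes at 0 counts in a library, and for each member the 2 genes nearest in level. LOC100200741, LOC105843599, LOC105844185, LOC100198469, LOC100208569, LOC100192275 and the CCT epsilon gene were named outside this rule, after their values were seen. Counts were rounded for intervals, which are exact Poisson or exact conditional (binomial for a ratio, noncentral hypergeometric for the change of a ratio) intervals at 95%. With 1 condition no test between groups was made. Means are given ± SD over 2 libraries, and ratios were computed on TPM or on log2(TPM + 0.1). The alternatives were other TPM thresholds, count minimums, pseudocounts, rescaled TPM, other sets of genes and a single library. The interval of a ratio was tested on simulated Poisson counts, so its coverage for amplified or split reads was not tested. The matching was tested on TPM pairs of known targets and on sums of adjacent ones. Python 3.11.15, numpy 2.4.6, pandas 2.3.3, scipy 1.17.1 and matplotlib 3.10.9 were used.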

Additional observations from a re-analysis of the deposited data

How the results depend on the processing

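Of 35 alternatives over 7 results, 19 left the value within its margin and 16 moved it, and none changed a direction. The margin was the SD over the libraries, the counting interval, a correlation of 0.1 or, for counts of genes, 1.5 times. Leaving out a library could not move the summed TPM past its margin, since each of 2 values lies within the SD of their mean. Leaving out library A could not change the counts of genes, since all 63 list genes reached 0.4 TPM there. These cases are among the 19 and say nothing of stability. The count of members at 0.4 TPM in both libraries stayed between 4 and 6. The 47 cytoskeletal genes became 25 at a threshold of 1 TPM and 18 where at least 10 counts were also required, and 47 to 63 with one library left out. The summed TPM of the members, 159, was 67.7 to 250 with one library left out. TPM rescaled without the 5 most abundant targets and lsu-rRNA gave 5663, and TPM rescaled over the other mRNA targets 10242, since both remove most of the total. The median log2 ratio of the members, 2.25, was 1.87 with a pseudocount of 1, and 1.91 and 1.38 on these rescaled TPM. It was 0.25 relative to the median of 171 mRNA targets with at least 10 counts in both libraries, which cofilin and talin-2 did not have. Over the 4 members with as many counts it was 1.67, below the 2.001 of those 171 targets. The actin to tubulin ratio in library A, 2.31, was 2.60 on counts, 1.46 over all tubulin genes and 4.83 without the α-tubulin with fractional counts. In library B, 1.74, it was 1.33 over all tubulin genes and 2.45 without that α-tubulin. The relation of ratio and length was examined after seeing the data. Its Spearman correlation of 0.428 was 0.206 with no filter on counts and 0.645 for 30 genes with at least 50 counts in library A, where all 372 mRNA targets gave 0.390.

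No paired analysis was possible because there was 1 condition and the labels give no replicate numbers. Depth limits library B most, where 18 of 63 cytoskeletal genes had fewer than 3 counts, so that a single read decides whether a short transcript passes 0.4 TPM.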

Other observations

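The chaperonin CCT, which folds actin and tubulin, was represented by 8 subunit genes, from alpha to theta. Their levels lay between 2.38 and 5.20 TPM in library A and between 0 and 1.15 TPM in library B. Of the 8, 6 reached 0.4 TPM in both libraries, beside 58.8% of the 1019 mRNA targets with a mean of at least 1.09 TPM. CCT epsilon (LOC100198918) was the most abundant in library A, with 60 counts (5.20 TPM) in library A against 7 counts (0.964 TPM) in library B. CCT theta (LOC100201609) had 26.6 counts (2.38 TPM) in library A against 0 counts in library B, at least 5.58-fold higher in library A. Its count in library A was fractional, so this bound depends on how shared reads were divided. The median log2 ratio of the subunits was 2.74, or 2.42 with theta set at 3 counts in library B, beside 2.78 over the 1066 mRNA targets with at least 20 counts.

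Some markers of *Hydra* cell types had at least 3 counts in both libraries, 4 of 9 nematocyte, 1 of 4 gland cell and 1 of 2 neuropeptide genes. For this minimum no share over all targets is given. For 0.4 TPM in both libraries, the share was 58.8% of the 1019 mRNA targets with a mean of at least 1.09 TPM. The 9 nematocyte genes, minicollagens of the stinging capsule wall and nematocilin, summed to 94.8 TPM in library A against 29.5 TPM in library B, and 6 of 9 reached 0.4 TPM in both. The 4 gland cell genes summed to 16.7 TPM in library A against 5.09 TPM in library B, with 2 of 4 at 0.4 TPM in both and 1 at 0 counts in library B. The gland cell gene Dlp-1 (LOC100192275) had 5 counts in each library, or 1.68 TPM in library A against 2.67 TPM in library B. The 2 neuropeptide genes summed to 9.08 TPM in library A against 1.79 TPM in library B, with 1 of 2 at 0.4 TPM in both. All these sums, like those of the cytoskeletal members, were lower in library B. By its match to a single-cell atlas, the study places actin LOC100202036 with a cluster of ectodermal battery cells, for which no marker is listed here. The part of any cell type in the members' levels was not tested.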
